A study of Gallus gallus with 9 samples.

Results

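The mitochondrial respiratory chain genes were described along the chick basilar papilla, the strip of hearing epithelium in the cochlear duct. Genes were taken by symbol from the deposited expression table: names that begin with *NDUF*, *UQCR*, *SDHA* to *SDHD*, *COX* followed by a digit, or *ATP5*, together with *CYC1* and *CYCS*. The rule found 73 of the 24880 genes in the table, and it used no measured value. They were 33 genes of complex I, 3 of complex II, 6 of complex III, cytochrome c itself, 18 of complex IV and 12 of complex V. By role, 54 encode subunits or cytochrome c and 19 encode assembly or other factors. *SDHA*, *SDHC*, *SDHD*, *CYC1*, the muscle-type genes *COX6A2* and *COX7A1*, and *NDUFA4L2* were not matched by symbol and were not analysed here.

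The series holds 9 RNA-seq libraries from untreated chickens at post-hatch day 1, with 3 replicates each of the base, the middle and the apex of the papilla. Neither strain nor sex was stated in the sources used here, and each replicate was RNA pooled from several chickens. The high-frequency end of the papilla is the base and the low-frequency end is the apex, so the comparison asks how transcript levels differ with position on the tonotopic axis. The dissected pieces are whole tissue and hold hair cells, supporting cells, nerve fibres with their glia, and blood cells.

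The respiratory chain sits in the inner mitochondrial membrane. Complex I (NADH dehydrogenase) and complex II (succinate dehydrogenase) pass electrons to ubiquinone, complex III passes them to cytochrome c, and complex IV (cytochrome c oxidase) passes them to oxygen, while complex V (ATP synthase) uses the resulting proton gradient to make ATP. Most subunits are encoded in the nucleus and a few in the mitochondrial genome, and assembly factors insert the cofactors and join the parts without staying in the finished complex. Hair cells depend on this supply for ion pumping and synaptic transmission.

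Nearly all chain genes had their lowest level at the base. Of the 70 members with a measurable level, 62 had a higher mean in the apex than in the base, against 48.8% of all 13045 genes tested, and 63 had a higher mean in the middle than in the base (49% of all genes). The differences were small, with a median log2 fold change of 0.19 from base to apex and 0.18 from base to middle, and no member passed with a ratio of 1.5 between apex and base, as 11.8% of all genes did. In the fit across all genes 11 members passed as higher in the apex (10.7% of all genes did so) and none as lower (11.3% of all genes). With the replicate number as a block, 33 passed as higher (18.5% of all genes) and 1 as lower (19.6%).

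**Figure D1:**
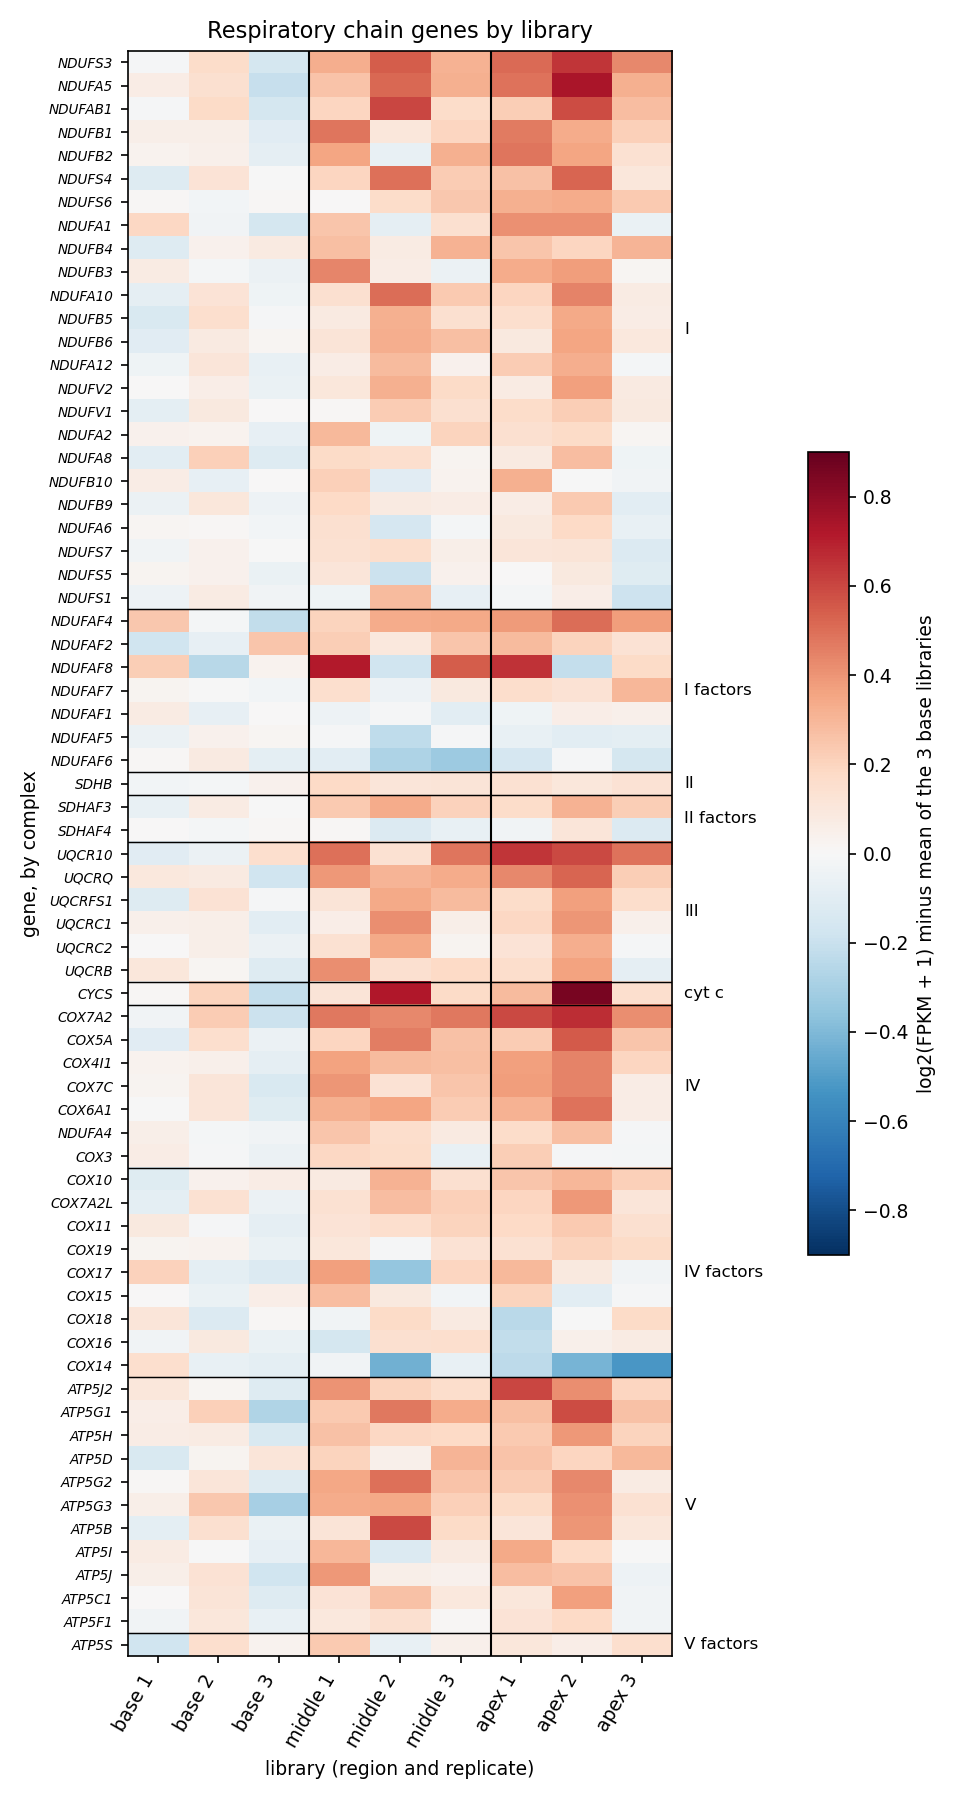
Each row is 1 of 69 tested genes, grouped by complex with assembly and other factors set apart, and each column is 1 library; colour gives log2(FPKM + 1) minus the mean of the 3 base libraries. Red prevails in the middle and apex columns, where most genes had a higher mean than in the base, and *COX14* is the darkest blue row.

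Levels are given as FPKM, sequenced fragments scaled to transcript length and library size, which is a measure per length and can be compared between genes. A gene passed when its adjusted p was under 0.05 in limma, fitted on log2(FPKM + 1) over the 13045 genes whose mean level reached 1 FPKM in any region. Of the 73 members, 70 had an FPKM of at least 1 in every library, so none entered the test through 1 region alone. The other 3, *COX5B*, *COX6B1* and *NDUFB7*, lie on unplaced scaffolds of galGal5 and were listed at 0 in every library, as were 3 of 67 genes of the cytosolic ribosome that every cell uses, so a failed estimate and a true absence could not be told apart.

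The median mean level over the 9 libraries was 99.95 FPKM for the 70 members, against 15.4 for all genes tested. Subunits and cytochrome c had a median of 128 FPKM and assembly and other factors 14.3 FPKM. *COX3*, the only member carried by the mitochondrial genome, stood highest at 15503 FPKM in the base, and *COX16*, an assembly factor of complex IV, stood lowest at 2.85 FPKM in the base. Members lie on 25 chromosomes, the mitochondrial genome included. Of the 59 tested members with a locus of their own, 69.5% span less than 5 kb, against 27.1% of the 10595 such genes among all tested. The other 11 share their locus entry with an overlapping gene, so how the reads there were divided is uncertain; among them are *NDUFS3*, *NDUFA5*, *NDUFAB1*, *COX7C*, *ATP5G1* and *ATP5B*.

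The subunit genes in the nucleus together with *CYCS* make 53 genes, of which 3 are at 0. Summed over these 53, the level was 7026, 7442 and 6773 FPKM in base replicates 1, 2 and 3. It was 8405, 8275 and 8069.7 FPKM in the middle and 8527, 9016 and 7682 FPKM in the apex. The base did not overlap either of the other regions, whose own values overlapped. Among the 51 tested subunits and cytochrome c, in each of the 3 pairs of libraries that share a number 45 were higher in the apex and none was lower throughout. Over all genes tested, 32.2% were higher in all 3 pairs and 34.1% lower.

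Cell type markers moved along the same axis. Of 10 hair cell markers 9 passed as higher in the apex than in the base, as 10.7% of all genes did. The other 1 was lower in every apex library than in every base library (log2 fold change -0.57). It passed as lower with the block only. The summed level of the 10 was 71.6 to 148 FPKM in the base, 170 to 294 in the middle and 325 to 547 in the apex. For supporting cells 6 of 8 markers passed, with sums of 760 to 1463, 1850 to 3694 and 2187 to 3107 FPKM in the same order of regions. Schwann cell markers rose in 3 of 4 tested genes, from 626 to 718 FPKM in the base to 1071 to 1632 in the apex. Of 7 macrophage markers 3 fell, and 11.3% of all genes passed as lower. Erythroid markers summed to 283 to 1077 FPKM in 8 libraries and to 3646 in apex replicate 3. Skeletal muscle markers rose in 2 of 4 tested genes, and none of 3 markers of the tegmentum vasculosum passed. With the block, 7 of 8 supporting cell, 4 of 4 Schwann cell and 1 of 3 tegmentum vasculosum markers passed as higher. So did 18.5% of all genes. As lower, 4 of 7 macrophage markers passed with the block, against 19.6% of all genes. Of 8 tested neuron markers only *ISL1* passed, *PRPH* was at 0, and the summed level followed the replicate: 630, 2761 and 1360 FPKM in replicate 2 of base, middle and apex, against 128 to 587 in the other libraries. In such bulk samples more cells of a type and more RNA per cell cannot be told apart, and the part that tissue composition had in the results below was not tested. The paper gives sequencing depth as an approximate range of read pairs per replicate, with no value named for each library. Relative depth by library was only estimated, from the steps between low values. The estimates ranged from 1 to 1.61 times that of base replicate 1, a wider spread than the range in the paper.

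Complex I, the largest enzyme of the chain, had 23 of 25 tested subunits with a higher mean in the apex than in the base, and the median log2 fold change was 0.18. *NDUFS3*, *NDUFA5* and *NDUFS6* passed. *NDUFS3*, a core subunit of the arm that reaches into the matrix (chromosome 5, 22788881 to 22852407, a locus shared with another gene), measured 59.1, 66.8 and 53.3 FPKM in the base, 74.8, 87.1 and 74.1 in the middle and 85.1, 93.5 and 80.7 in the apex. All apex and all middle libraries lay above all base libraries. The log2 fold change from base to apex was 0.53 ± 0.10 (SE; adjusted p = 0.0083), the smallest adjusted p of the chain, and 0.39 from base to middle, where it passed only with the block (adjusted p = 0.0506 without and 0.0027 with it).

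*NDUFA5*, an accessory subunit of the same arm (chromosome 1, 22307520 to 22312663, also a shared locus), measured 39.9, 42.0 and 32.7 FPKM in the base, 45.6, 54.7 and 47.6 in the middle and 53.8, 64.0 and 47.8 in the apex. Its base libraries were the 3 lowest of the 9. The log2 fold change from base to apex was 0.52 ± 0.13 (adjusted p = 0.0237). *NDUFS6*, a zinc-binding accessory subunit added late in assembly (chromosome 2, 86261324 to 86266277), measured 74.0, 72.0 and 74.0 FPKM in the base and 91.7, 92.7 and 86.4 in the apex. Its middle libraries, at 73.6, 82.2 and 86.7 FPKM, reached into both end regions. The fold change was smaller, at 0.30 ± 0.07, with a narrow spread at the base (SD 1.2, n = 3; adjusted p = 0.0187).

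The other 22 complex I subunits did not pass. With the block, 8 more did so for apex against base, and 18.5% of all genes passed as higher. Among the 8 were *NDUFAB1*, the mitochondrial acyl carrier protein (99.9 ± 11.6 to 129 ± 18.5 FPKM; adjusted p = 0.0103), and *NDUFB4*, the subunit with the highest level in the complex (307, 341 and 351 FPKM in the base, 395, 379.9 and 411 in the apex, a log2 fold change of 0.25; adjusted p = 0.0806, and 0.02 with the block). Apart from *NDUFS3*, the log2 fold changes of the core subunits ran from -0.05 for *NDUFS1*, the large iron-sulfur subunit, to 0.17 for *NDUFV2*, and none of them passed with or without the block. *NDUFS1* measured 53.7 ± 2.52, 56.3 ± 8.07 and 52.0 ± 4.54 FPKM (SD, n = 3) in base, middle and apex. For *NDUFS5* the 95% interval of the difference between apex and base ran from -0.21 to 0.20.

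Among the 7 assembly factors of complex I, *NDUFAF4* passed. It acts in building the part of the matrix arm that binds ubiquinone (chromosome 3, 72911668 to 72915627), and stood lowest of the tested complex I genes, at 9.95, 8.17 and 6.93 FPKM in the base against 11.1, 12.1 and 11 in the apex. The apex libraries lay above all base libraries, and the log2 fold change was 0.42 ± 0.12 (adjusted p = 0.0321). *NDUFAF7* passed with the block only, with a log2 fold change from base to apex of 0.20 (adjusted p = 0.101 without and 0.0323 with it). *NDUFAF6*, named after its values were seen, was the one member lower in the middle than in the base with the block: 12.4, 13.1 and 11.54 FPKM in the base, 11.47, 10.02 and 9.65 in the middle and 11, 12.3 and 11 in the apex. The log2 fold change from base to middle was -0.23 ± 0.09, with an adjusted p of 0.131 without the block and 0.0361 with it. *NDUFAF8* varied most among the assembly factors between replicates, at 16.4, 17.3 and 16.8 FPKM in replicate 2 of the 3 regions and 20.1 to 32.9 in the others.

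**Figure D2:**
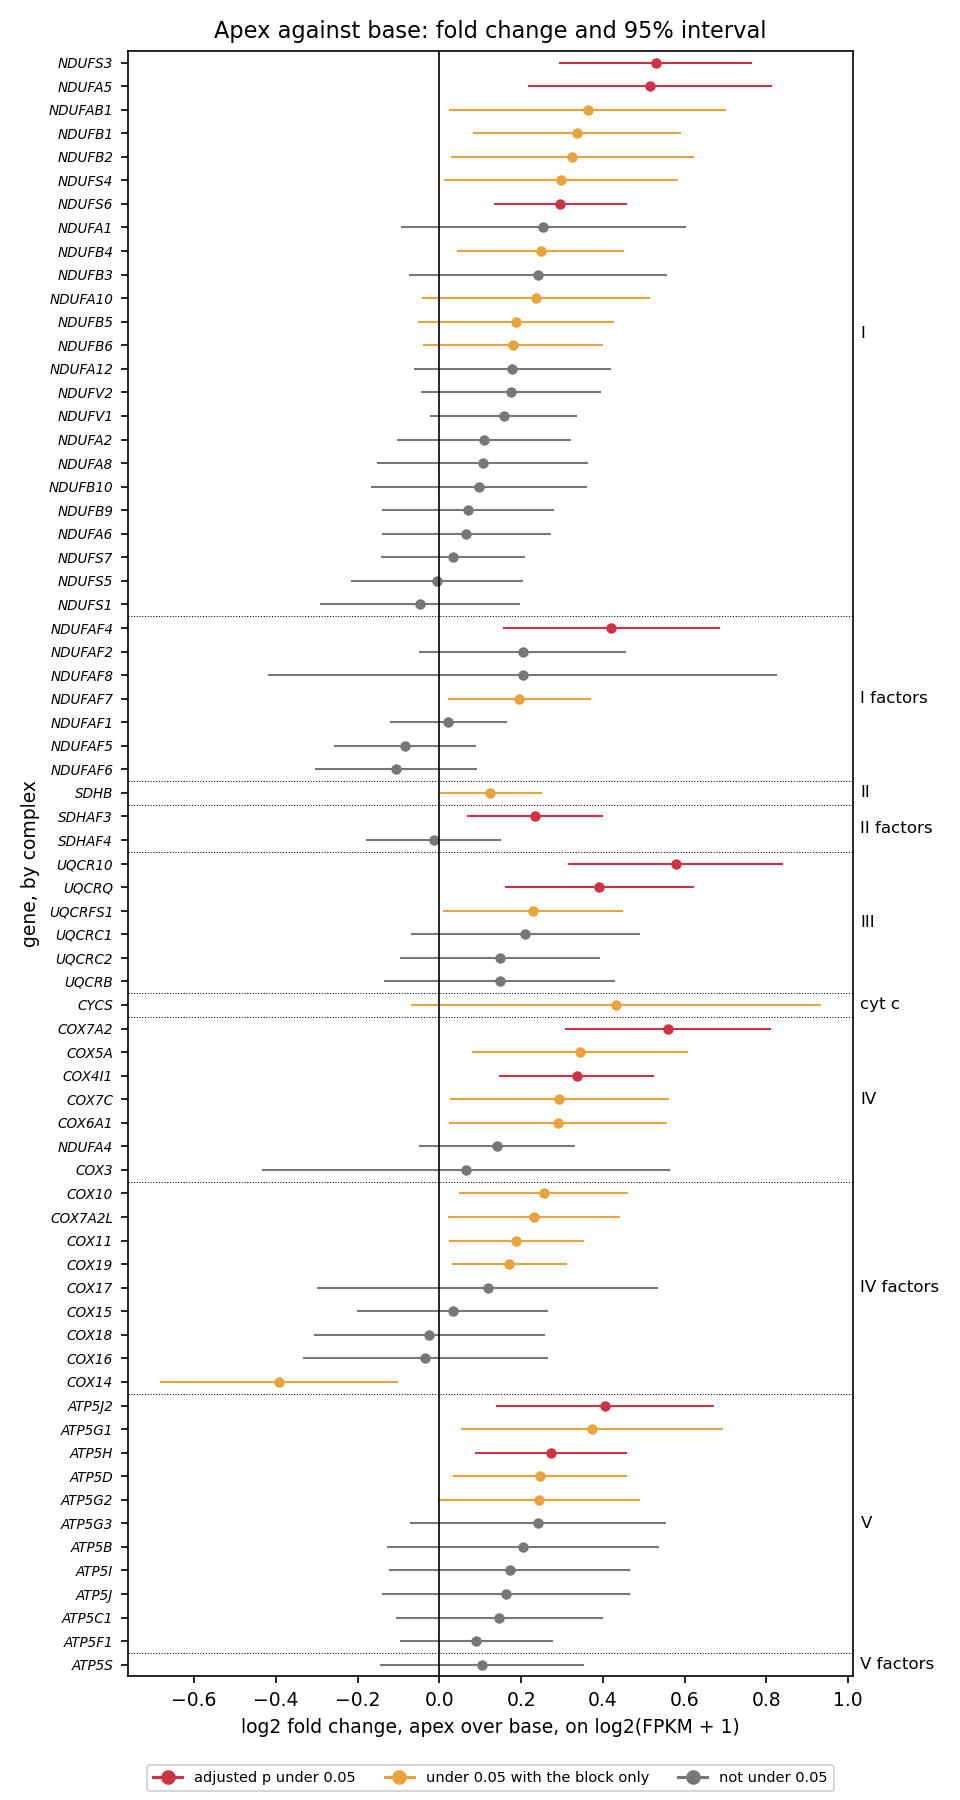
Log2 fold change from base to apex for 69 tested genes, with its 95% interval from limma, grouped by complex. Red marks the 11 genes that passed, orange those that passed with the replicate block only, and grey the rest; *COX14* is the one coloured gene to the left of 0.

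Complex II was represented by *SDHB*, its iron-sulfur subunit, and 2 assembly factors. *SDHB* measured 136, 136 and 142 FPKM in the base, 156, 149 and 149 in the middle and 152, 148 and 151 in the apex. The base libraries lay below all others, but by little: the log2 fold change from base to apex was 0.12 ± 0.05 and passed only with the block (adjusted p = 0.135 without and 0.0436 with it). *SDHAF3*, which protects the iron-sulfur clusters of *SDHB* during assembly in yeast and fly (chromosome 2, 24507099 to 24534305), passed for apex against base. Its levels were 11.3, 12.6 and 11.8 FPKM in the base, 14.2, 15.2 and 13.9 in the middle and 13.5, 15.0 and 14 in the apex. The step lay between base and middle (log2 fold changes 0.26 and 0.23 from base to middle and to apex), and its adjusted p of 0.0479 was the closest of the 11 to the threshold; *SDHAF4* differed by -0.01.

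All 6 tested genes of complex III had a higher mean in the apex and in the middle than in the base. *UQCR10*, a small subunit that contacts cytochrome c1 (chromosome 15, 11093312 to 11094737), measured 195, 203 and 233 FPKM in the base, 297, 231 and 293 in the middle and 329, 318 and 295 in the apex. Base and apex did not overlap, while middle replicate 2 fell within the range of the base. Its log2 fold change of 0.58 ± 0.11 from base to apex was the largest of all members (a ratio of mean FPKM of 1.49; adjusted p = 0.0090).

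*UQCRQ*, a small subunit that lies against cytochrome b (chromosome 13, 17160590 to 17161925), measured 114, 113 and 94.3 FPKM in the base, 141, 132 and 135 in the middle and 144, 154 and 125 in the apex. The base libraries were the 3 lowest, and the log2 fold change from base to apex was 0.39 ± 0.10 (adjusted p = 0.0251). *UQCRFS1*, the Rieske iron-sulfur protein, passed with the block only (117 ± 10.2 to 137 ± 11.6 FPKM; adjusted p = 0.123 without and 0.0163 with it). *UQCRB*, the lowest of the complex, measured 39.3 ± 2.99 FPKM in the base and 43.9 ± 6.87 in the apex, with overlapping libraries, and the large core proteins *UQCRC1* and *UQCRC2* did not pass either way.

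*CYCS*, cytochrome c, had one of the larger fold changes and a wide spread. It measured 43.6, 49.9 and 37.0 FPKM in the base, 46.9, 72.0 and 48.7 in the middle and 52.9, 79.1 and 48.2 in the apex. Replicate 2 was the highest in each region, and the regions overlapped when replicate numbers were set aside. The log2 fold change from base to apex was 0.43 ± 0.22 (95% interval -0.07 to 0.93; adjusted p = 0.199). Within same-numbered libraries it was higher in the apex in 3 of 3 pairs, and the blocked fit gave an adjusted p of 0.0279.

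Complex IV had the largest median fold change of the multi-gene complexes among subunits, 0.29 from base to apex over 7 tested. *COX7A2*, the widely expressed isoform of subunit 7a in mammals (chromosome 3, 81074319 to 81077654), measured 144, 173 and 129 FPKM in the base, 206, 199.6 and 206 in the middle and 223, 235 and 198 in the apex. Every base library lay below every other library. The log2 fold change was 0.56 ± 0.11 from base to apex (adjusted p = 0.0087) and 0.46 ± 0.11 from base to middle (adjusted p = 0.0382). It was the only member that passed between base and middle, where 4.12% of all genes passed as higher and 4.28% as lower.

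*COX4I1*, the common form of subunit 4, which holds regulatory sites of the enzyme (chromosome 11, 17841429 to 17845559), measured 277, 279.8 and 256 FPKM in the base, 348, 330.0 and 327 in the middle and 349, 368 and 310.2 in the apex. Again the 3 base libraries were the lowest, and the log2 fold change from base to apex was 0.34 ± 0.08 (adjusted p = 0.0206). *COX5A*, *COX6A1* and *COX7C* passed with the block only, with log2 fold changes of 0.34, 0.29 and 0.29. *COX6A1*, at 473, 511 and 438 FPKM in the base and 588, 665 and 497 in the apex, overlapped between the regions, through apex replicate 3.

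The remaining subunits moved little. *NDUFA4*, named for complex I and now counted with complex IV, measured 152 ± 4.68, 169.9 ± 9.67 and 168 ± 16.0 FPKM in base, middle and apex (adjusted p = 0.264 from base to apex). *COX3* measured 16201, 15368 and 14939 FPKM in the base and 18082, 15369 and 15319 in the apex, and the interval of its difference ran from -0.43 to 0.56. Its locus entry takes in neighbouring mitochondrial genes.

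None of the 9 assembly and other factors of complex IV passed. With the block 4 passed as higher in the apex (18.5% of all genes) and 1 as lower (19.6%). The 4 were *COX10*, which makes the precursor of heme a, the copper-handling genes *COX11* and *COX19*, and *COX7A2L*, which joins complex III to complex IV (56.3, 65.9 and 57.6 FPKM in the base and 68.6, 78.5 and 64.7 in the apex; adjusted p = 0.0154 with the block). *COX14*, which holds newly made COX1 protein at the start of assembly, went the other way and was named after its values were seen. It measured 89.4, 76.7 and 75.4 FPKM in the base, 78.6, 59.2 and 76.7 in the middle and 68.1, 59.8 and 55.4 in the apex. All apex libraries lay below all base libraries, with a log2 fold change of -0.39 ± 0.13 (adjusted p = 0.0567, and 0.0090 with the block).

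**Figure D3:**
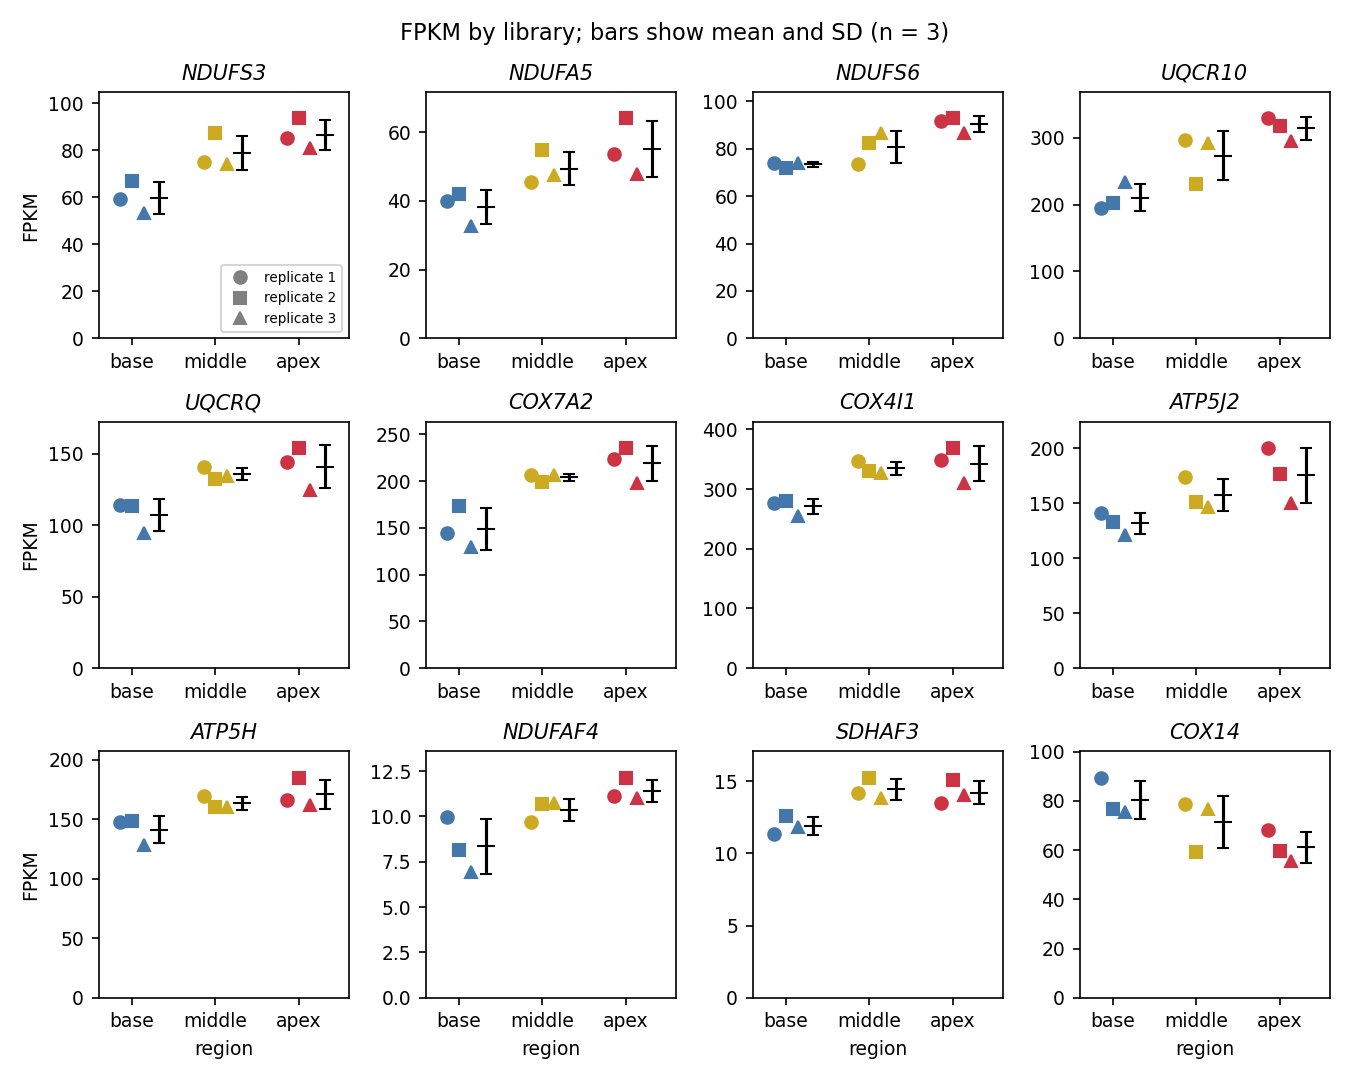
FPKM in each library for the 11 genes that passed between apex and base and for *COX14*; circles, squares and triangles are replicates 1, 2 and 3, and the black bars give mean and SD (n = 3). Base and apex do not overlap in any of the 12 panels, and *COX14* is the only one that falls.

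All 11 subunit genes of complex V had a higher mean in the apex and in the middle than in the base, with a median log2 fold change of 0.24 from base to apex. *ATP5J2*, subunit f of the membrane part (chromosome 14, 4414437 to 4415527), measured 141, 133 and 121 FPKM in the base, 174, 151 and 147 in the middle and 200.2, 176 and 150.3 in the apex. The apex libraries lay above the base libraries, with a wide spread of their own. The log2 fold change was 0.41 ± 0.12 (adjusted p = 0.0371).

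*ATP5H*, subunit d of the peripheral stalk (chromosome 18, 10720628 to 10723334), measured 148, 148 and 128 FPKM in the base, 169, 161 and 160.4 in the middle and 167, 185 and 162 in the apex. Base libraries were again the lowest, and the log2 fold change from base to apex was 0.27 ± 0.08 (adjusted p = 0.0410). *ATP5G1*, *ATP5G2* and *ATP5G3* encode precursors of the same ring subunit c in mammals, and reads may be shared between such close copies. Their mean levels in the base were 125, 109.6 and 150.1 FPKM, and their log2 fold changes from base to apex were 0.37, 0.24 and 0.24.

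The first and second of them passed with the block (adjusted p = 0.0133 and 0.0164) and the third did not (0.0714). *ATP5D*, the delta subunit, also passed with the block only (adjusted p = 0.0215). It measured 246, 276 and 292 FPKM in the base and 324, 309 and 332 in the apex. *ATP5I*, subunit e of the membrane part and the highest of the complex, measured 563, 532 and 508 FPKM in the base and 675, 605 and 532 in the apex, with apex replicate 3 inside the range of the base (adjusted p = 0.384). *ATP5B*, the catalytic beta subunit, was higher in replicate 2 of each region than in the other replicates and did not pass between base and apex (422 ± 37.5 to 487 ± 59.0 FPKM; adjusted p = 0.359, and 0.101 with the block). From base to middle it was higher in 3 of 3 same-numbered pairs and passed with the block only (adjusted p = 0.236 without and 0.0381 with it). *ATP5S*, a coupling factor and the lowest, measured 9.27 ± 1.19 and 9.99 ± 0.346 FPKM in base and apex.

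Against 10.7% of all genes that passed as higher in the apex, the passing members were 3 of 25 subunits and 1 of 7 factors of complex I, 1 of 3 genes of complex II, 2 of 6 of complex III, 2 of 7 subunits and 0 of 9 factors of complex IV, and 2 of 11 subunits of complex V. For the subunits of complex I this was 12%, close to the share of all genes. The median log2 fold change from base to apex was 0.23 for the 51 subunits and cytochrome c and 0.12 for the 19 factors, against -0.01 for all genes tested and -0.05 for those whose mean reached 30 FPKM. The difference between subunits and factors was not tested. Of the 70 tested members, 27 were higher in all apex libraries than in all base libraries (20.7% of all genes) and 2 lower (22% of all genes), *COX14* and *NDUFAF5*.

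**Figure D4:**
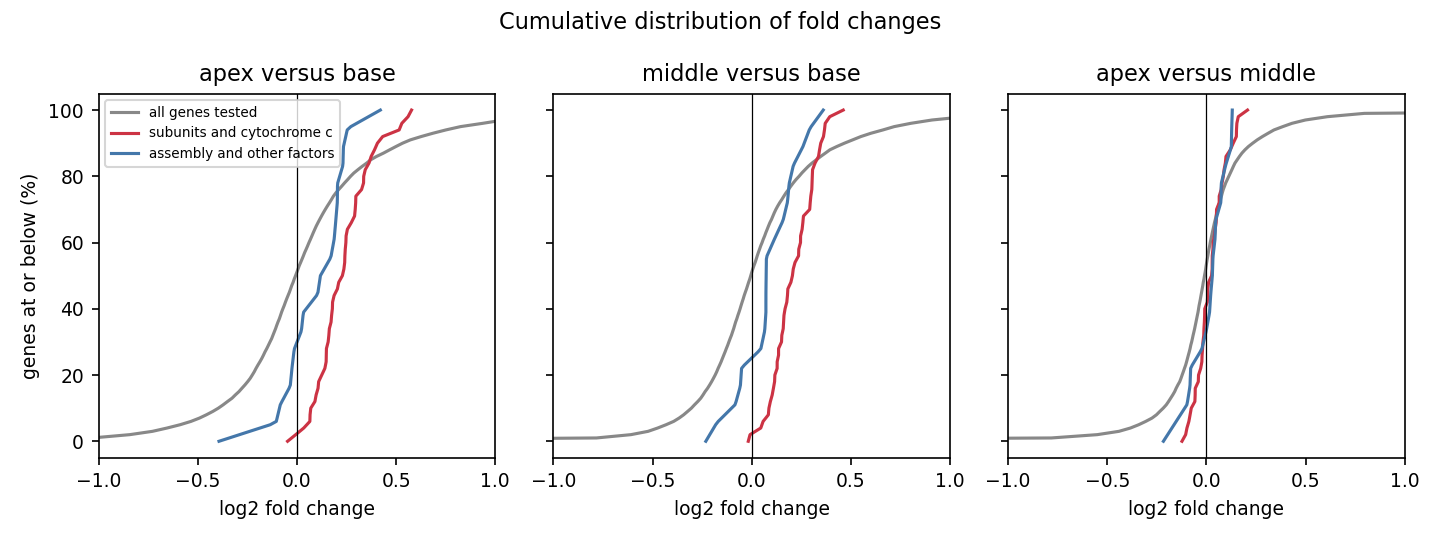
Cumulative share of genes by log2 fold change on log2(FPKM + 1), for all 13045 genes tested, the 51 subunits and cytochrome c, and the 19 assembly and other factors, in the 3 comparisons; the axis is cut at -1 and 1. The subunit curve lies to the right of 0 for apex and for middle against base, with medians of 0.23 and 0.21, and close to 0 for apex against middle.

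Most of the difference lay between the base and the middle. The order base, middle, apex from low to high was found in 37 of 70 members (52.9%, against 24.8% of all genes tested), and the base was the lowest region in 60 (85.7%, against 41.8%). The highest region was the apex in 39 members, the middle in 26 and the base in 5. From base to middle 1 member passed as higher and none as lower, and with the block 24 passed as higher (13.5% of all genes) and 1 as lower (13.6%). Of the genes named above, those that passed as higher in the middle only with the block were *NDUFS3*, *NDUFA5*, *NDUFAB1* and *NDUFB4* of complex I (blocked adjusted p = 0.0027, 0.0139, 0.0262 and 0.0445), *SDHB* and *SDHAF3* of complex II (0.0425 and 0.0069), and *UQCR10*, *UQCRQ* and *UQCRFS1* of complex III (0.0217, 0.0094 and 0.0171). In complex IV they were *COX4I1*, *COX5A*, *COX6A1* and *COX7A2L* (blocked adjusted p = 0.0062, 0.0109, 0.0199 and 0.0325), and in complex V *ATP5J2*, *ATP5H*, *ATP5G1*, *ATP5G2*, *ATP5G3* and *ATP5B* (0.0303, 0.0330, 0.0262, 0.0043, 0.0435 and 0.0381). In that comparison 26 members were higher in all middle libraries than in all base libraries (14.1% of all genes) and 1 lower (16.6%).

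Between apex and middle no member passed in limma (0.046% of all genes passed as higher and 0.0153% as lower), none passed with the block (1.76% and 1.27%), and none had an unadjusted p under 0.05 in either direction. The median log2 fold change over members was 0.03, and values ran from -0.22 for *COX14* to 0.21 for *UQCR10*. The mean was higher in the apex for 42 members (46.4% of all genes) and in the middle for 28, and 2 members did not overlap between the regions as higher in the apex (6.78% of all genes) and none as lower (6.07%). The split of the means followed single libraries: without apex replicate 2 it was 29 and 41. *UQCR10* had an interval of -0.05 to 0.47 and *COX7A2* of -0.15 to 0.35, so a difference between these regions is not shown and not excluded for either gene.

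Library numbers carried a pattern, in the whole table as in the chain. Deviations from region means in same-numbered libraries correlated with a median of 0.46 over all genes tested and 0.46 over members. The counts that follow were made for the chain only, without a share over all genes. Of the 51 subunits and cytochrome c, 36 were below the mean of their region in replicate 3 of all 3 regions, and 26 were above it in replicate 2 of all 3. In apex replicate 3 only 3 of the 51 were above the region's mean, while in apex replicate 2 it was 45. Genes within the chain did not share it evenly, since *CYCS*, *NDUFAB1* and *ATP5B* were highest in replicate 2 of each region, and *NDUFAF8*, *COX17* and *NDUFB10* were below the mean there in all 3 regions. Replicate 2 was also where the neuron markers stood high; their part in this was not tested.

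**Figure D5:**
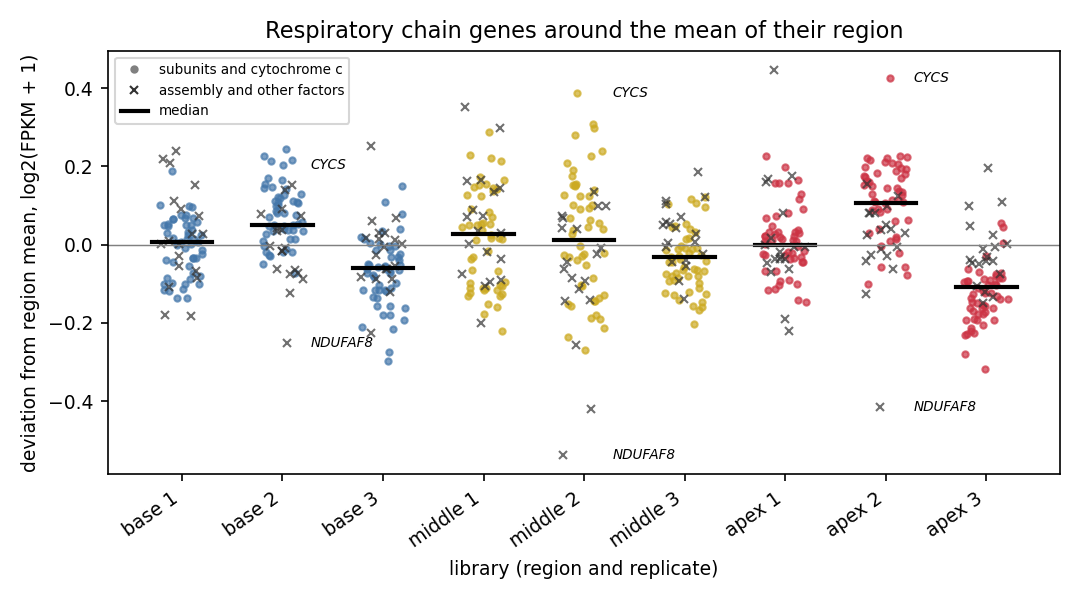
Deviation of each tested gene from the mean of its region on log2(FPKM + 1), by library; dots are subunits and cytochrome c, crosses are assembly and other factors, and black lines are medians over the 70 genes. The medians of apex replicates 2 and 3 lie at 0.11 and -0.11, and *CYCS* and *NDUFAF8* lie far apart in replicate 2 of each region.

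The number of genes that passed depended on single libraries. Without 1 library, between 3 and 16 members passed as higher in the apex than in the base. There were 5 without any one base library, 3 without apex replicate 1 or apex replicate 2, and 16 without middle replicate 2. Of all genes, 5.72%, 6.29% and 9.69% passed as higher without base replicates 1, 2 and 3. The share was 7.38% and 8.51% without apex replicates 1 and 2, and 12.9% without middle replicate 2. *NDUFS3*, *COX7A2* and *UQCR10* passed in each of these 9 fits. A ratio of 1.5 was then passed by at most 3 members, without base replicate 2 or apex replicate 3. Without the libraries numbered 1 in all 3 regions no member passed. Without those numbered 2 there were 6, and without those numbered 3 there was 1. In the same order 2.09%, 8% and 4.76% of all genes passed as higher in the apex, against 10.7% in the main fit. *COX7A2* lost its call between base and middle in 7 of the 9 fits that left out a single library. In these 9 fits 0.383% to 5.49% of all genes passed as higher in the middle, against 4.12% in the main fit.

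Other genes of mitochondrial energy supply were read from the same fit. None of the 13 subunits encoded in the mitochondrial genome, the member *COX3* among them, passed between apex and base. Of these, 12 had a higher mean in the apex (48.8% of all genes did). Their median log2 fold change was 0.13 over the 13, with a median SE of 0.20. Of 19 tested further assembly genes none passed (2 with the block as higher, against 18.5% of all genes), and the median was 0.04. In the tricarboxylic acid cycle and pyruvate dehydrogenase 1 of 13 passed as higher (7.7%, against 10.7% of all genes), and 4 did with the block (18.5% of all genes). The 1 that passed without the block was *SUCLG2*, a subunit of succinyl-CoA ligase (8.89 ± 0.121 to 11.8 ± 0.727 FPKM, log2 fold change 0.37, adjusted p = 0.0156).

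The 13 tested genes of mitochondrial biogenesis had a median log2 fold change of -0.05 from base to apex. Of these 1, *GABPB1*, a subunit of the factor NRF-2, passed as lower in the apex (25.4 ± 1.51 to 21.5 ± 0.328 FPKM, -0.23, adjusted p = 0.0359; 11.3% of all genes passed as lower), and 4 did with the block (19.6% of all genes). *TFAM*, which packages and transcribes the mitochondrial genome, measured 40.8 ± 1.71 and 38.1 ± 1.98 FPKM in base and apex. None of 9 carriers passed, and 2 passed as higher with the block (18.5% of all genes). They were the ADP/ATP carrier *SLC25A5* (adjusted p = 0.0065) and the outer membrane channel *VDAC1* (0.0123).

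In glycolysis 1 of 11 tested genes rose, *HK1*, the first enzyme of the path, from 58.0 ± 4.69 to 103 ± 14.5 FPKM (log2 fold change 0.82, adjusted p = 0.0102), and with the block 3 rose. Of 62 mitochondrial ribosome genes 3 passed as higher (9 with the block) and none as lower, with a median of 0.10 (10.7% of all genes passed as higher, and 18.5% with the block), and of 63 cytosolic ribosome genes 1 passed, with a median of -0.01. A higher mean in the apex was not limited to the chain. It was found in 53 of 62 mitochondrial ribosome genes, 11 of 13 of the tricarboxylic acid list, 7 of 9 carriers and 8 of 11 glycolysis genes. For further assembly genes it was 11 of 19, for biogenesis 6 of 13 and for the cytosolic ribosome 28 of 63, against 48.8% of all genes.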

How the data were processed

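RNA-seq libraries of base, middle and apex (9 in all) were grouped by the region and number in their titles. The authors aligned reads of oligo-dT libraries to galGal5 with STAR 2.5.4b, used Ensembl annotation and deposited the FPKM that Cuffdiff 2.2.1 gave each gene in each library. FPKM hold no counts, so the precision is known only from the replicates, and relative depth was estimated from the steps between low values. All 24880 genes and 9 value columns were read; galGal5 loci are given 1-based. The members and lists were chosen with earlier results of these data known.

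log2(FPKM + 1) was fitted with limma 3.58.1 (R 4.3.3) on region, with an intensity trend, over all 9 libraries and the 13045 genes whose mean level reached 1 FPKM in any region. Fold changes are on that scale, which understates changes of low genes. Tests were two-sided with Benjamini-Hochberg adjustment over all genes tested; a gene passed at an adjusted p under 0.05. The code was tested on simulated data. The study names no block. Its methods imply that same-numbered libraries share their chickens, and deviations from region means correlated at 0.37 to 0.66 in the 9 same-numbered pairs (median 0.46), so the numbers were taken to pair the libraries, and blocked values (limma's duplicateCorrelation, consensus 0.459) are given where they change a call.

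Genes named by rule were members that passed in any comparison and the highest and lowest of each complex. The rule also took isoforms of the subunits with close copies, complex II and cytochrome c. Other members named serve as examples outside the rule, and several were named for their values, such as passing with the block only. *COX14* and *NDUFAF6* were likewise picked once their values were known. The marker and energy lists were described by counts and medians. A few single genes are counted but not reported here by name, and 1 member is left out of the plots by gene, which show 69. No sequence table was at hand, so no sequences are shown.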

Additional observations from a re-analysis of the deposited data

How the results depend on the processing

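Between apex and base, the count of members that passed as higher was 11, and it lay between 9 and 14 with a pseudocount of 0.1, without the filter, with a filter of 1 FPKM in 6 libraries, with quantile or median-ratio scaling, without the trend and with the 6 libraries compared alone. In those settings 8.69% to 11.7% of all genes passed as higher. With the replicate block the count was 33 (random) and 32 (fixed term), against 18.5% and 17.8% of all genes. All 11 genes were still called under both blocks. As lower, 0 passed, and 1 did so with either block and with the 6 libraries alone (*COX14*). The share of all genes that passed as lower was 19.6% and 18.8% with the random and fixed block, and 11% with the 6 libraries alone. Without single replicates the counts ran from 3 to 16 higher, 0 to 1 lower and 0 to 3 with a ratio of 1.5. The share of all genes that passed as higher ran from 5.72% to 12.9% in those fits, and as lower from 5.91% to 12.7%. Without a whole replicate number the counts were 0, 6 and 1 higher for numbers 1, 2 and 3. A ratio of 1.5 was passed by 1 member for numbers 2 and 3. Of all genes, 2.09%, 8% and 4.76% passed as higher without numbers 1, 2 and 3.

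Between middle and base, 1 member passed as higher; it was 2 with the pseudocount of 0.1 and with the filter in 6 libraries, 4 with quantile and 3 with median-ratio scaling, 24 and 26 with the random and fixed replicate block, 0 with the 6 libraries alone, and 0 to 1 without single replicates, with 0 for each whole number left out. Of all genes, 4.45% and 4.55% passed as higher with that pseudocount and that filter, and 3.59% and 4.22% with quantile and median-ratio scaling. The share was 13.5% and 14.3% with the random and fixed block, and 1.3% with the 6 libraries alone. In the fits without single replicates 0.383% to 5.49% of all genes passed as higher, against 4.12% in the main fit. Without a whole replicate number it was 0% to 0.598%. As lower, 1 member passed with the random block, against 13.6% of all genes. Between apex and middle no setting gave a call among members. At most 2.32% of all genes passed as higher and 2.05% as lower there, with the fixed block. No result changed direction past the threshold. The causes of these shifts were not tested. With quantile scaling the median of all genes moved by less than 0.1, and 55 members were then higher in the apex than in the middle. Precision is limited by 3 pooled libraries per region, and no outlier test applies to groups of that size.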
